A study of Drosophila melanogaster
Mus musculus with 36 samples.

Results

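The entries described here are the Drosophila melanogaster miRNA arms whose family number also exists in mouse. They were chosen by name: let-7, mir-1, mir-7, mir-10, mir-31, mir-92, mir-100, mir-124, mir-125, mir-133, mir-137, mir-190, mir-193, mir-210, mir-219 and mir-375, with any letter, copy or arm. The rule found 27 of the 372 fly entries, in a table of 2038 entries of both species, and 26 of the 27 had a mouse entry of the same number and arm. All 27 had at least 1 count, and 14 of the 16 families named in the rule had an entry. Families mir-1 and mir-133 are not analysed here.

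Each library was a mixture of total RNA from 2 cultured cell types. The fly RNA came from S2-S cells, a sub-line of the Schneider cell line, with the genotype DmHen1-KO; FLAG-MYC-AthHEN1. In these cells the fly's own Hen1 is knocked out and a tagged Arabidopsis HEN1 is expressed, and the mouse RNA came from embryonic stem cells of clone AN3-12, which carry no such transgene. Oxidised libraries (sodium periodate) and untreated libraries were made from each mixture at fly to mouse ratios of 1:1, 1:10, 1:100, 1:1000, 1:10000 and 1:100000, with 3 replicates of each of the 12 groups and 36 libraries in all. Every mixture therefore holds the same methylating fly line, and no fly RNA without AthHEN1 is among the groups. The labels do not say that replicates came from separate cultures, so p-values measure the spread between these libraries, which may be technical.

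HEN1 is a plant methyltransferase that adds a methyl group to the last ribose of both strands of a miRNA duplex. Periodate oxidises the unprotected end of an RNA, which then cannot be ligated to the sequencing adapter, whereas a methylated end survives. Animal miRNAs are normally unmethylated, so in such a mixture the fly miRNAs carry the mark and the mouse miRNAs do not. Conserved miRNAs are the hard case for a mixture of species, because mature arms of the same number can be identical or nearly so in fly and mouse, and a read may then fit an entry of either species.

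Depth differed between treatments. Oxidised libraries held 3654 to 1312980 counts (median 37848) and untreated libraries held 326776 to 16619600 (median 4345830). Fly entries held 89.1% ± 1.48 of counts in oxidised 1:1 libraries and 10.1% ± 9.14 in oxidised 1:100000 libraries, against 40.9% ± 9.74 in untreated 1:1 libraries and 0.0244% ± 0.0341 in untreated 1:100000 libraries (SD, n = 3 each). The 7 S2 marker entries, led by bantam, held 29.8 to 57.5% of fly counts in oxidised and 24.6 to 64.0% in untreated libraries. The 26 mouse stem cell entries (mir-290 to mir-295 and mir-302) held 5.14 to 76.0% of mouse counts in oxidised and 66.9 to 90.0% in untreated libraries. The 6 mouse muscle entries were at or near 0, with at most 0.0423% of mouse counts in oxidised and 0.000354% in untreated libraries. Untreated 1:100000 replicate 1 stood apart from the other untreated libraries of that ratio in its fly counts, and results that rest on it are given with and without it. Untreated 1:10000 replicate 1 had a scaling factor of 0.264, against 1.32 and 1.38 in replicates 2 and 3 of that group, which raises its levels. Oxidised factors were lower still at 1:1 (0.0731, 0.192 and 0.156) and low at 1:10 (0.273, 0.155 and 0.115). Untreated factors were 1.00, 0.806 and 0.961 at 1:1, and 1.00, 1.05 and 1.06 at 1:10. The low factors raise the oxidised levels and the oxidised to untreated folds at both ratios. Levels below are counts per 1000000 mouse miRNA counts, scaled as described under processing, so a level of 1 is 1 fly count per 1000000 scaled mouse counts. In mixed RNA, fewer cells of a type and less RNA per cell cannot be told apart.

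Most of the conserved entries were rare in these cells. In 18 of the 27 no library exceeded 10 counts. An edgeR filter on low counts was passed by 7 entries over the untreated libraries, by 2 over the oxidised libraries and by 6 over all 36 libraries. Together 8 entries passed at least once: dme-mir-190-5p, dme-mir-190-3p, dme-mir-92b-3p, dme-mir-92a-3p, dme-mir-7-3p, dme-mir-31a-5p, dme-mir-193-5p and dme-mir-124-3p. The other 19 passed in none and are described by their counts.

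The most abundant was dme-mir-190-5p, from a hairpin with arms of that number in both species. At 1:1 it had 4139, 74 and 666 counts in oxidised replicates 1, 2 and 3, against 1436, 143 and 830 in untreated ones. At 1:10 the counts were 1898, 80 and 443 oxidised, against 377, 112 and 587 untreated, and at 1:100 they were 192, 22 and 13 oxidised, against 55, 9 and 157 untreated. At 1:1000 it had 5, 13 and 17 oxidised counts, against 5, 1 and 3 untreated. From 1:1000 on no library held more than 19 counts of it. At 1:10000 it had 4, 1 and 11 oxidised counts against 3, 0 and 1 untreated, and at 1:100000 it had 1, 0 and 0 oxidised against 19, 0 and 0 untreated. The 19 counts were all in untreated 1:100000 replicate 1.

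As a level, dme-mir-190-5p averaged 202440 ± 158793 in oxidised and 694 ± 313 in untreated 1:1 libraries (SD, n = 3 each). At 1:10 it averaged 121763 ± 4384 oxidised and 79.7 ± 16.3 untreated, and at 1:100 it averaged 11074 ± 2576 oxidised and 8.31 ± 0.963 untreated. Every oxidised library lay above every untreated one at 5 of the 6 ratios, and the oxidised library of a mixture was above the untreated one in 16 of 18 pairs and below it in none.

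Its partner strand dme-mir-190-3p was the next most abundant. At 1:1 it had 627, 15 and 179 counts in oxidised replicates, against 657, 33 and 401 in untreated ones. At 1:10 the counts were 219, 13 and 111 oxidised, against 114, 43 and 349 untreated, and at 1:100 they were 20, 11 and 4 oxidised, against 11, 3 and 76 untreated. Beyond 1:100 no library held more than 8 counts of it. Its level averaged 37358 ± 19888 oxidised and 247 ± 80.4 untreated at 1:1 (SD, n = 3 each), and the treatments did not overlap at 3 ratios.

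dme-mir-92b-3p, an arm of the miR-92 family, had fewer counts in oxidised than in untreated libraries at 1:1 in every replicate. At 1:1 it had 98, 2 and 17 counts in oxidised replicates, against 289, 24 and 159 in untreated ones. At 1:10 it had 40, 1 and 23 oxidised counts, against 47, 13 and 95 untreated, and at 1:100 it had 3, 2 and 0 oxidised, against 6, 2 and 28 untreated. Its level averaged 4977 ± 3598 oxidised and 126 ± 46.5 untreated at 1:1, and 3523 ± 2687 oxidised and 10.8 ± 3.39 untreated at 1:10 (SD, n = 3 each). The treatments did not overlap at those 2 ratios.

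Lower still were dme-mir-7-3p, the partner strand of miR-7, and dme-mir-31a-5p. dme-mir-7-3p had 47, 0 and 33 counts in oxidised 1:1 libraries, against 116, 4 and 70 in untreated ones. Its level averaged 3619 ± 3310 in oxidised and 39.2 ± 16.6 in untreated 1:1 libraries (SD, n = 3 each). Oxidised replicate 2 at 1:1, with 0 counts, was below all untreated libraries of that ratio, and the treatments did not overlap at 1 ratio only, 1:10. dme-mir-31a-5p had 58, 2 and 17 counts in oxidised 1:1 libraries, against 40, 2 and 28 in untreated ones. As a level this was 3738 ± 1491 oxidised and 16.0 ± 6.55 untreated (SD, n = 3 each), with no overlap at 3 ratios.

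dme-mir-124-3p, the fly entry of a miRNA known as abundant in neurons of both species, did not thin out with dilution. In untreated libraries it had 34, 1 and 3 counts at 1:1, 68, 6 and 57 at 1:10, 58, 10 and 110 at 1:100, 51, 8 and 95 at 1:1000, 13, 34 and 103 at 1:10000, and 17, 56 and 132 at 1:100000. In all 18 oxidised libraries together it had 5 counts, against 856 in the untreated ones. At its untreated level against the scaled mouse counts, 2.41 oxidised counts would be expected, so the 5 show no decrease with periodate. The untreated counts did not decline although the fly RNA fell by a factor of 100000. Its untreated level was 6.21 ± 3.36 at 1:1, 8.13 ± 3.12 at 1:10, 7.86 ± 1.58 at 1:100, 11.2 ± 4.19 at 1:1000, 17.0 ± 9.10 at 1:10000 and 10.7 ± 2.22 at 1:100000 (SD, n = 3 each). At 1:10000 the level was 27.4 in untreated replicate 1, the library with the scaling factor of 0.264, and lower in the other replicates.

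dme-mir-92a-3p, the other miR-92 arm that passed, behaved in nearly the same way. In untreated libraries it had 26, 0 and 10 counts at 1:1, 30, 7 and 42 at 1:10, 21, 2 and 79 at 1:100, 26, 2 and 39 at 1:1000, 2, 6 and 42 at 1:10000, and 2, 7 and 48 at 1:100000. Oxidised libraries held 6 counts of it in all, every one in replicate 1 at 1:1, against 391 counts in untreated libraries. At its untreated level 1.10 oxidised counts would be expected. Its untreated level was 5.09 ± 4.46 at 1:1, 5.60 ± 0.747 at 1:10, 3.15 ± 1.45 at 1:100, 4.00 ± 0.0852 at 1:1000, 3.61 ± 1.14 at 1:10000 and 2.20 ± 1.62 at 1:100000 (SD, n = 3 each).

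**Figure D1:**
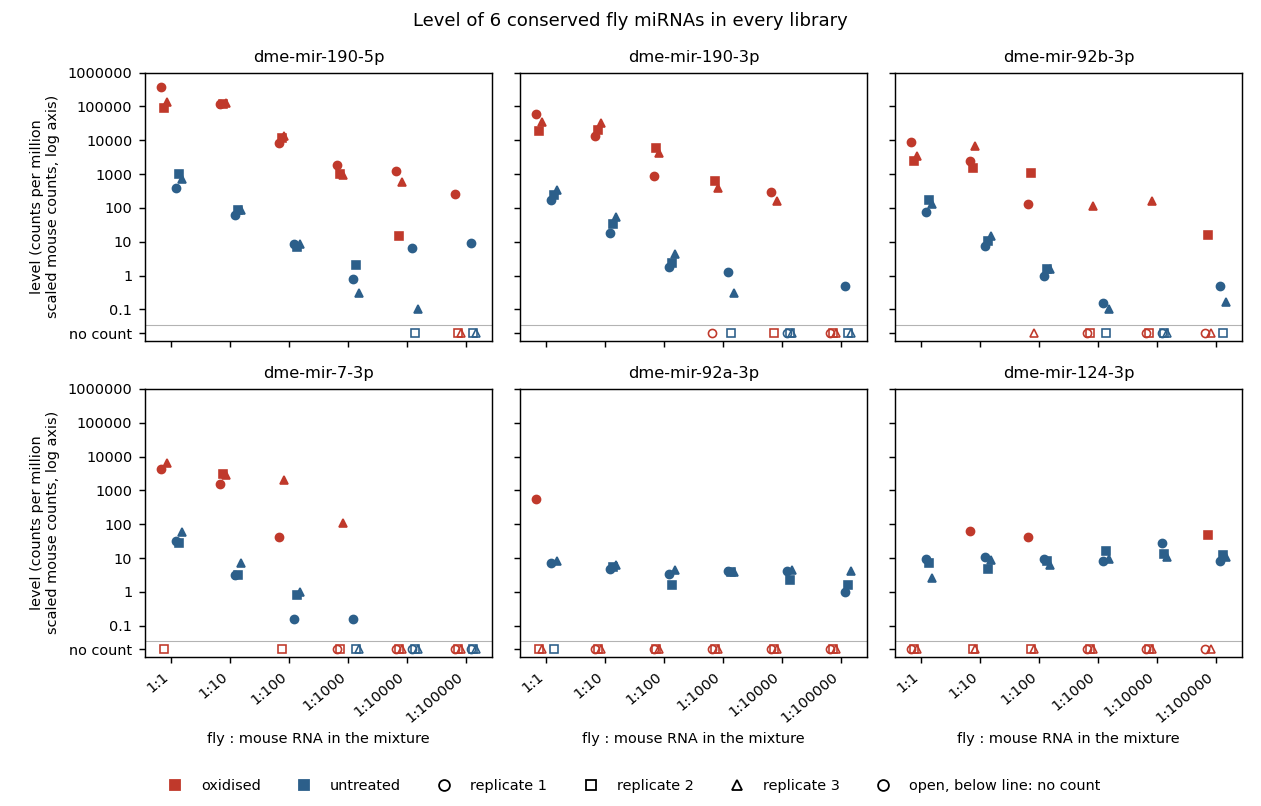
Level in every library (counts per 1000000 scaled mouse counts, log axis) of 6 conserved fly entries against the fly to mouse ratio, with oxidised libraries in red left of untreated libraries in blue, 1 symbol per replicate and open symbols below the line for libraries with 0 counts. The entries dme-mir-190-5p, dme-mir-190-3p, dme-mir-92b-3p and dme-mir-7-3p step down with dilution, with oxidised libraries above untreated ones where both hold counts. Untreated means of dme-mir-92a-3p lie between 2.20 and 5.60, and those of dme-mir-124-3p between 6.21 and 17.0. Both of these entries are at 0 in most oxidised libraries. There 1.10 and 2.41 counts in all would be expected at their untreated levels.

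To separate entries that followed the fly RNA from those that followed the mouse RNA, the slope of log10 level on log10 mixing ratio was fitted over the 18 untreated libraries with edgeR's quasi-likelihood test. A slope of 1 is strict proportion to the fly RNA and a slope of 0 is a constant level against the mouse miRNAs. The 118 other fly entries tested had a median slope of 0.829, and 99.2% of them were called above 0 at an adjusted p below 0.05 (Benjamini-Hochberg over all tested entries). The 743 mouse entries tested had a median of 0.0079. A second fit scaled each library to its other fly counts, so that a slope below 0 there is a decline less steep than that of the other fly miRNAs, and 1.69% of the other fly entries (2 of 118) were called below 0.

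Of the 7 conserved entries tested, 6 were called above 0 in the first fit and 3 below 0 in the second. Slopes of 4 entries lay close to the fly median: dme-mir-190-3p at 0.860 ± 0.0447, dme-mir-7-3p at 0.851 ± 0.0390, dme-mir-31a-5p at 0.821 ± 0.0414 and dme-mir-92b-3p at 0.818 ± 0.0524 (SE, adjusted p between 2.93e-13 and 3.30e-11). Against the other fly counts these 4 had slopes between -0.112 and -0.0188, none called. They diluted with the fly RNA by both fits.

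dme-mir-124-3p tracked the mouse RNA by both fits. Its slope against the mouse miRNAs was -0.0557 ± 0.0236 (SE, edgeR adjusted p = 0.110), and against the other fly counts it was -0.911 ± 0.0715 (adjusted p = 1.94e-14). The first slope was called below 0, at -0.0709 with adjusted p = 0.0262 by edgeR, when untreated 1:100000 replicate 1 was left out, and at -0.0790 with adjusted p = 0.000929 without replicate 1. For dme-mir-92a-3p the slope against the mouse miRNAs was 0.0774 ± 0.0235 (edgeR adjusted p = 0.0229), and against the other fly counts it was -0.797 ± 0.0688 (adjusted p = 1.56e-13). The call above 0 was lost without replicate 2 (0.0698, edgeR adjusted p = 0.0823), without replicate 1 (0.0525, adjusted p = 0.0622) and without untreated 1:100000 replicate 1 (adjusted p = 0.0752). It was also lost without the 1:1 mixtures (edgeR adjusted p = 0.225) or the 1:100000 mixtures (adjusted p = 0.148). Under the 3 other scalings the slope was between 0.0311 and 0.0556 and not called (edgeR adjusted p = 0.193 to 0.613).

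By their calls dme-mir-190-5p and dme-mir-92a-3p fall in the same class, above 0 in the first fit and below 0 in the second. By size of slope, dme-mir-190-5p lay between the entries that diluted with the fly RNA and dme-mir-124-3p and dme-mir-92a-3p. It had a slope of 0.591 ± 0.0852 against the mouse miRNAs (SE, edgeR adjusted p = 8.65e-06) and of -0.137 ± 0.0423 against the other fly counts (adjusted p = 0.00303). Its place between them rests on the 19 counts in untreated 1:100000 replicate 1. Without that library the slopes were 0.907 against the mouse miRNAs, beside a median of 0.893 for other fly entries, and -0.0225 against the other fly counts, no longer called. Without replicate 1 they were 1.01, beside a median of 0.958, and 0.0551. With replicate sets as a block the second slope was -0.0911 (edgeR adjusted p = 0.0689), and adjusted over fly entries alone its p was 0.0652.

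**Figure D2:**
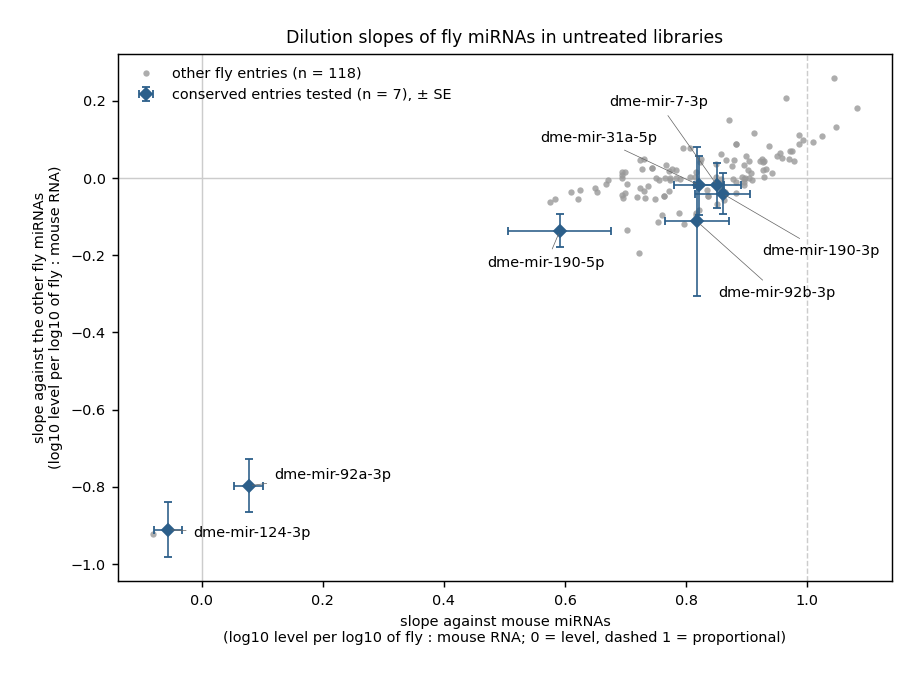
Slope against the other fly miRNAs (vertical) and against the mouse miRNAs (horizontal), both in log10 level per log10 of fly to mouse RNA in untreated libraries, for the 7 conserved entries tested (blue, with SE) and 118 other fly entries (grey). The 4 entries near a horizontal slope of 0.83 sit among the other fly entries, dme-mir-190-5p lies at 0.591 and -0.137 with untreated 1:100000 replicate 1 in the fit, and dme-mir-92a-3p and dme-mir-124-3p lie apart at -0.797 and -0.911 on the vertical axis.

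The 2 other fly entries called below 0 against fly counts were dme-mir-9a-5p and dme-mir-263a-5p, named after their values were seen. Both are fly miRNAs with mouse relatives outside the rule. The slope of dme-mir-9a-5p was -0.0798 ± 0.0409 against the mouse miRNAs and -0.921 ± 0.0774 against fly counts (SE), like that of dme-mir-124-3p. dme-mir-263a-5p had 0.722 ± 0.0557 against the mouse miRNAs and -0.196 ± 0.0580 against fly counts.

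Over the 18 oxidised libraries only the 2 arms of mir-190 passed the filter for the fit. dme-mir-190-5p had a slope of 0.766 ± 0.0702 (SE, edgeR adjusted p = 1.83e-09) and dme-mir-190-3p one of 0.716 ± 0.0648 (adjusted p = 1.57e-09). All of the other fly entries tested (100%, 74 of 74) were called above 0 there, with a median of 0.653. The other conserved entries did not pass that filter. With the filter made on all libraries, 6 of 6 conserved entries were called above 0, and without a filter 16 of 21.

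Levels of all 6 conserved entries tested rose with periodate relative to the mouse miRNAs at 1:1, 1:10 and 1:100 (edgeR, 1 mean per group over all 36 libraries). The shares called higher among other fly entries were 98.2% at 1:1, 99.1% at 1:10 and 94.6% at 1:100, so a call was the rule for fly entries that passed the filter. The 21 entries below the filter are not covered by these counts. The filter sets counts against library depth, so a few counts in shallow oxidised libraries can suffice. dme-mir-193-5p passed with 61 counts in all. dme-mir-124-3p with 861 and dme-mir-92a-3p with 397, nearly all untreated, did not pass. The filter thus favours entries high after periodate, here and in the other tests over all 36 libraries. The number of calls is therefore no independent support for a rise. At 1:1 the log2 changes, oxidised minus untreated, ranged from 5.43 ± 0.81 for dme-mir-92b-3p to 8.74 ± 1.12 for dme-mir-193-5p, with 8.20 ± 1.51 for dme-mir-190-5p and 7.26 ± 0.97 for dme-mir-190-3p (SE). At 1:10 they ranged from 8.45 ± 0.93 for dme-mir-92b-3p to 10.58 ± 1.66 for dme-mir-190-5p. The members' median log2 change was 7.60 at 1:1, 9.54 at 1:10 and 9.94 at 1:100, beside 7.27, 9.64 and 9.89 among other fly entries. The scaling sets the zero of these values: the median mouse entry changed by -0.10 at 1:1 here, by -1.88 with DESeq2 size factors, by -0.81 with factors from all mouse entries and by -5.71 with total counts. Relative to those medians the direction of every one of the 6 entries was the same, and dme-mir-92b-3p at 1:1 is at -0.07 with total counts.

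Pooled over replicates, dme-mir-190-5p was 619-fold higher in oxidised than in untreated 1:1 libraries (exact 95% interval 590 to 651, counting error only), 1564-fold at 1:10 and 994-fold at 1:100. The same ratio for dme-mir-92b-3p was 75.8-fold at 1:1 (61.4 to 93.0), 287-fold at 1:10 and 134-fold at 1:100. These intervals leave out the spread between replicates, and the difference between the 2 entries was not tested.

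**Figure D3:**
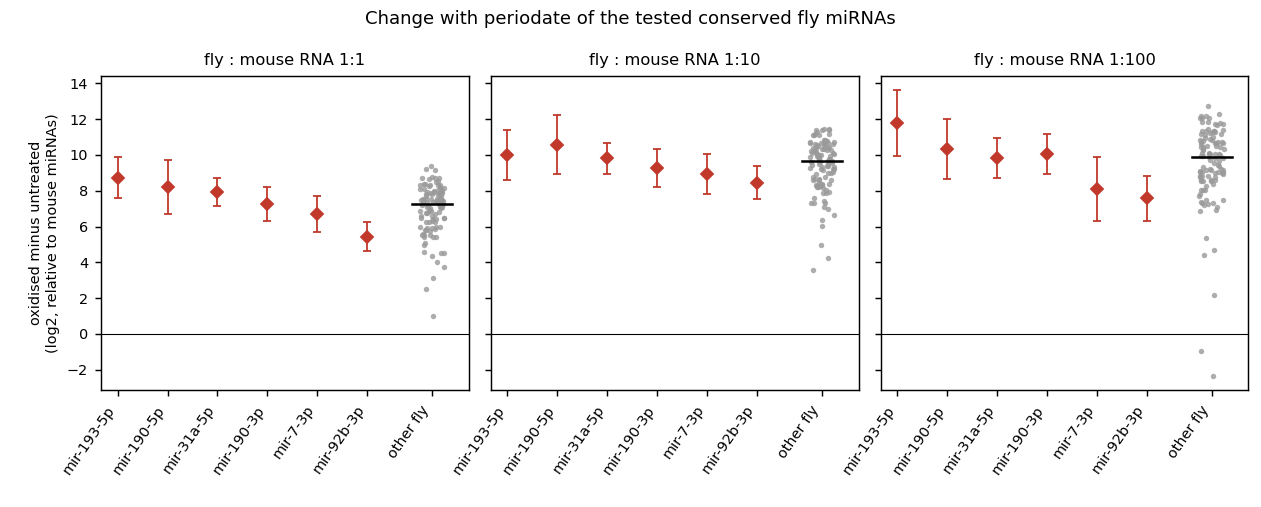
Log2 change with periodate relative to the mouse miRNAs (oxidised minus untreated, diamonds with SE) for the 6 tested conserved entries at 1:1, 1:10 and 1:100, beside the 111 other fly entries (grey, bar at the median). All 6 lie above 0 at the 3 ratios and within the range of the other fly entries, with dme-mir-92b-3p lowest at 1:1 (5.43), 1:10 (8.45) and 1:100 (7.58).

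Counts thinned out below 1:100. At 1:1000, 5 of 5 conserved entries tested were called higher, beside 92.9% of other fly entries. Without replicate 3 that count was 2, and the call of dme-mir-193-5p rested on 1 oxidised count against 0 untreated. At 1:10000, 3 of 3 were called higher, beside 91.2%, and without replicate 3 the count was 1. There the untreated libraries held no count of dme-mir-190-3p, which with 4 oxidised counts puts the ratio above 93.4-fold by the exact interval. dme-mir-92b-3p had 3 oxidised counts at 1:10000 against 0, and its ratio lay above 58.5-fold in the same way.

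At 1:100000, 0 of 4 conserved entries tested were called by edgeR, beside 84.1% of other fly entries. The count at an unadjusted p under 0.05 was 1, dme-mir-92b-3p, with log2 5.95 ± 2.28 (SE, edgeR adjusted p = 0.0871), and DESeq2 called 3. On pooled counts dme-mir-92b-3p was 84.9-fold higher, from 1 oxidised count and 3 untreated ones (exact interval 1.62 to 1057). The other DESeq2 calls, of dme-mir-190-3p and dme-mir-193-5p, had 0 oxidised counts and 1 untreated count each, so their counts show no increase. Averaged over the 6 ratios, 2 of 3 entries tested were called higher, dme-mir-190-5p by 8.67 ± 2.25 (edgeR adjusted p = 0.00371) and dme-mir-92b-3p by 7.61 ± 1.14 (adjusted p = 1.96e-06), beside 87.8% of other fly entries. The third, dme-mir-190-3p, had 7.49 and was not called by edgeR, with no counts in the untreated 1:10000 libraries, and DESeq2 gave it 8.94 (adjusted p = 3.48e-72). Without replicate 1, 2 or 3 the calls were 1 of 1, 1 of 5 and 1 of 2 entries tested.

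The change with periodate did not pass a test of difference along the dilution for any of the 6 entries. edgeR called 0 of 6, 1 at an unadjusted p under 0.05 (dme-mir-190-5p, 0.251 ± 0.120 log10 per log10 ratio, edgeR adjusted p = 0.265), and DESeq2 called 0. Among other fly entries 23.4% were called lower in that test, that is, with a smaller change at higher fly shares.

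Whether conserved entries were kept through periodate as other fly miRNAs were was tested with each library scaled to its other fly counts. At 1:1, 2 of 6 were called higher, dme-mir-193-5p by log2 1.97 ± 0.75 (SE, edgeR adjusted p = 0.0163) and dme-mir-31a-5p by 1.21 ± 0.54 (adjusted p = 0.0400). The call of dme-mir-31a-5p was lost without any one replicate (edgeR adjusted p = 0.107, 0.165 and 0.137 without replicates 1, 2 and 3), and without bantam among the other fly counts its value was 0.62 (adjusted p = 0.293). That of dme-mir-193-5p was lost without replicate 3 (1.97, edgeR adjusted p = 0.102) and without bantam (1.41, adjusted p = 0.0820). Among other fly entries 20.7% were called higher and 10.8% lower. At 1:10 none of the 6 was called higher or lower by edgeR, with 0 at an unadjusted p under 0.05 (no other tool was run), beside 18.9% higher and 11.7% lower. At 1:100, 1 was called higher, dme-mir-193-5p by 3.72 ± 1.34 (edgeR adjusted p = 0.0110) on 5 oxidised counts and 1 untreated count, beside 19.8% higher and 10.8% lower, and this call was lost without replicate 2 (2.76, edgeR adjusted p = 0.110). These 3 calls were lost when p-values were adjusted over fly entries alone, with edgeR adjusted p of 0.0629, 0.115 and 0.0503.

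In the same scaling dme-mir-92b-3p had -1.23 ± 0.61 at 1:1 (SE, edgeR adjusted p = 0.0614), -0.67 ± 0.61 at 1:10 and -1.44 ± 0.86 at 1:100. With replicate sets as a block the value at 1:1 was -1.33 and was called (edgeR adjusted p = 0.0281). The block also brought dme-mir-190-5p past the threshold, with 1.50 at 1:1 (adjusted p = 0.0362) and 1.49 at 1:10 (adjusted p = 0.0377), where the unblocked values were 1.63 ± 0.87 and 1.55 ± 0.87. The remaining entries, dme-mir-190-3p and dme-mir-7-3p, were between -0.77 and 0.67 at the 3 ratios and were called at none.

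The 2 arms of mir-190 come from 1 hairpin, so their ratio within a library is free of depth and of the mouse scaling. At 1:1 the ratio of 5p to 3p counts was 6.60, 4.93 and 3.72 in oxidised replicates, against 2.19, 4.33 and 2.07 in untreated ones. At 1:10 it was 8.67, 6.15 and 3.99 oxidised, against 3.31, 2.60 and 1.68 untreated, and at 1:100 it was 9.60, 2.00 and 3.25 oxidised, against 5.00, 3.00 and 2.07 untreated. The oxidised ratio was the higher one in 8 of 9 mixtures, with treatments overlapping at 1:1 and 1:100. Averaged over these ratios the log2 difference, oxidised minus untreated, was 0.83 (exact permutation test within ratios, two-sided p = 0.0215, or p = 0.0117 with mixtures as pairs). It was 1.31 in replicate set 1, 0.28 in set 2 and 0.92 in set 3. The comparison was chosen after the values were seen, and with 3 against 3 at 1 ratio an exact test cannot go below p = 0.1.

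Both patterns show in the share of all fly counts that the 27 entries held. After periodate the share stayed low along the dilution, with group means between 0.189% and 0.394%. In untreated libraries it was 0.150% ± 0.0156 at 1:1, 0.202% ± 0.0569 at 1:10, 0.364% ± 0.153 at 1:100, 1.56% ± 0.853 at 1:1000, 9.25% ± 5.03 at 1:10000 and 31.1% ± 25.1 at 1:100000 (SD, n = 3 each). At 1:100000 dme-mir-124-3p alone held 0.933%, 40.6% and 28.7% of untreated fly counts in replicates 1, 2 and 3, and dme-mir-92a-3p held 0.110%, 5.07% and 10.4%. Replicate 1, where other fly counts were high, was the low one for both.

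**Figure D4:**
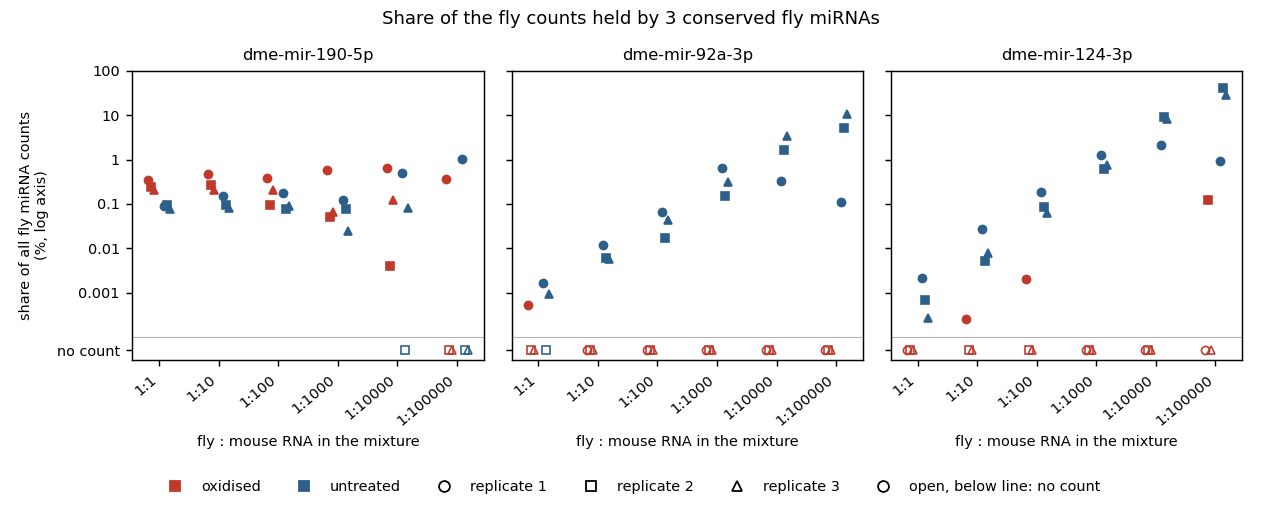
Share of all fly miRNA counts (percent, log axis) held by dme-mir-190-5p, dme-mir-92a-3p and dme-mir-124-3p in every library against the fly to mouse ratio, with oxidised libraries in red left of untreated libraries in blue and open symbols below the line for 0 counts. The share of dme-mir-190-5p stays near or below 1% throughout, whereas untreated shares of the other 2 climb with dilution, up to 10.4% for dme-mir-92a-3p and 40.6% for dme-mir-124-3p at 1:100000.

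Set beside the mouse entry of the same number and arm, the fly entries split the same way. Of several such mouse entries the one with the most untreated counts was taken, and for miR-92 the letter was matched too. The height of each percentage depends on that choice. In untreated libraries the summed counts of dme-mir-124-3p were 0.356% of those of mmu-mir-124-1-3p at 1:1, 0.387% at 1:10, 0.315% at 1:100, 0.392% at 1:1000, 0.393% at 1:10000 and 0.436% at 1:100000. Over all untreated libraries the figure was 0.380% (Wilson 95% interval 0.355 to 0.406%, counting error only), beside 0.857% (0.365 to 2.01%) over all oxidised libraries on 5 fly counts. For dme-mir-92a-3p against mmu-mir-92a-1-3p the untreated figure was 0.0907% at 1:1, 0.0715% at 1:10, 0.0479% at 1:100, 0.0624% at 1:1000, 0.0575% at 1:10000 and 0.0492% at 1:100000. Neither figure followed the dilution, although that of dme-mir-92a-3p was highest at 1:1. The 12 mouse entries of the neuronal miRNAs miR-124 and miR-9 all had counts and held a median of 0.348% of mouse counts in oxidised and 0.834% in untreated libraries.

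dme-mir-92b-3p instead was 34.8% of mmu-mir-92b-3p at 1:1, 3.40% at 1:10, 0.377% at 1:100 and then 0.0458% (1:1000), again without oxidation. dme-mir-190-5p was 254% of mmu-mir-190a-5p at 1:1, 45.0% at 1:10, 5.98% at 1:100 and 0.282% at 1:1000. dme-mir-7-3p was 58.6% of mmu-mir-7a-1-3p at 1:1, 6.55% at 1:10 and 0.952% at 1:100. Each of these 3 was lower at each of these steps than at the one before. How reads that match both species were assigned is not given in the sources used here, and its part in the level of dme-mir-124-3p and dme-mir-92a-3p was not tested.

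**Figure D5:**
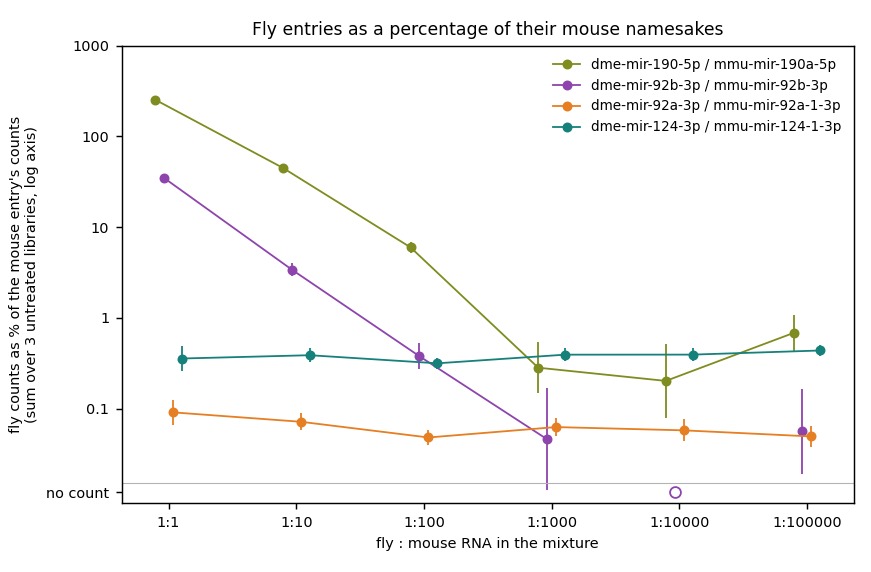
Summed counts of 4 fly entries as a percentage of the mouse entry named beside them (log axis) over the 3 untreated libraries at each fly to mouse ratio, with Wilson 95% intervals where the fly count is below the mouse count and an open symbol for 0 counts. dme-mir-190-5p and dme-mir-92b-3p decline from 254% and 34.8% at 1:1, whereas dme-mir-124-3p stays between 0.315% and 0.436% and dme-mir-92a-3p between 0.0479% and 0.0907%.

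After periodate the pooled level of dme-mir-124-3p relative to the scaled mouse counts was 2.08-fold the untreated level, with an exact interval of 0.673 to 4.86 that holds no change (counting error only). dme-mir-92a-3p was 5.46-fold (1.99 to 12.0) over all ratios, all of it from the 6 counts at 1:1, where it was 51.0-fold (17.6 to 122). At the other 5 ratios its oxidised libraries held 0 counts. The same pooled ratio was 721-fold for dme-mir-190-5p (693 to 750).

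Among the 19 entries that passed no filter, counts fell into similar kinds, given here as a description. dme-mir-193-3p had 22 oxidised and 39 untreated counts, with 0 untreated counts at 1:1000 and below. dme-mir-137-3p had 6 oxidised and 22 untreated counts, dme-mir-375-3p had 7 and 15, and dme-mir-100-5p had 2 and 13, and none of these 3 had an untreated count at 1:1000 or below. dme-mir-10-3p had 11 oxidised and 5 untreated counts, dme-mir-92a-5p had 12 and 3, and dme-mir-31b-5p had 8 and 5. Of the 2 oxidised counts of dme-mir-100-5p, 1 was at 1:100000.

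Other rare entries had untreated counts on both sides of that step. dme-mir-125-5p had 0 oxidised and 47 untreated counts, of which 25 came from 1:1 to 1:100 and 22 from 1:1000 to 1:100000. dme-mir-210-3p had 6 oxidised and 45 untreated counts, split 22 and 23, and dme-mir-7-5p had 0 oxidised and 13 untreated counts, split 7 and 6. dme-mir-219-5p had 0 oxidised and 18 untreated counts, split 13 and 5, and dme-let-7-5p had 0 oxidised and 5 untreated counts, split 4 and 1. At their untreated levels none of these entries would have more than 0.132 oxidised counts, so those with 0 oxidised counts show no loss. For dme-mir-210-3p 0.127 oxidised counts would be expected, against the 6 found. Its pooled level after periodate was 47.4-fold the untreated level (exact interval 16.5 to 111, counting error only). By mixture, its oxidised level was the higher one in 4 of 18 pairs and the lower one in 10. In the gene table of Release 6, let-7 lies between mir-100 and mir-125, a cluster known for its role in late development.

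The last entries were close to absent. dme-mir-31a-3p had 6 oxidised and 7 untreated counts and dme-let-7-3p had 1 and 3. dme-mir-210-5p had 3 oxidised and 0 untreated counts. dme-mir-137-5p and dme-mir-100-3p had 1 oxidised count each, and dme-mir-125-3p and dme-mir-375-5p 1 untreated count each.

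The arms of the fly miR-7 hairpin can be set beside the mouse entry of the same number. The partner strand dme-mir-7-3p diluted with the fly RNA, and dme-mir-7-5p, the guide strand known to act in fly eye development, had 0 oxidised and 13 untreated counts. At the untreated level of dme-mir-7-5p 0.0366 oxidised counts would be expected. The mouse entry mmu-mir-7a-1-5p had 774, 17.5 and 158 counts in oxidised 1:1 libraries, against 7303, 515 and 2937 in untreated ones. As a level it averaged 41551 ± 26642 oxidised and 2675 ± 865 untreated at 1:1, 24174 ± 4873 oxidised and 1985 ± 412 untreated at 1:10, 4384 ± 1262 oxidised and 1651 ± 374 untreated at 1:100, and 2682 ± 1665 oxidised and 1654 ± 238 untreated at 1:100000 (SD, n = 3 each). Every oxidised library lay above every untreated one at 1:1, 1:10 and 1:100.

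This mouse entry rose with periodate by log2 3.99 ± 0.52 at 1:1 (SE, edgeR adjusted p = 3.55e-07) and 3.60 ± 0.51 at 1:10 (adjusted p = 6.29e-07). Its change at 1:100 was 1.37 ± 0.50 (adjusted p = 0.0443), and at 1:1000 it was 0.05 ± 0.49, not called. The call at 1:100 was lost without any one replicate, with changes no smaller than 1.28 (edgeR adjusted p from 0.158 to 0.328), and with mixtures as a replicate block, at 1.39 (adjusted p = 0.0808). It was also lost without a filter (edgeR adjusted p = 0.617) and in a fit on that ratio alone (adjusted p = 0.0558). With DESeq2 size factors the change was 1.10 at 1:10, not called (edgeR adjusted p = 0.122). At 1:100 it was -1.55 in that scaling, called lower (edgeR adjusted p = 0.0418). The median mouse entry was at -2.47 and -2.50 there. Its slope was 0.260 ± 0.0382 in oxidised libraries (adjusted p = 2.40e-06) and 0.0339 ± 0.0141 in untreated ones (adjusted p = 0.105). The untreated slope was called by DESeq2 (0.0334, adjusted p = 0.0478) and, by edgeR, without replicate 1 (0.0435, adjusted p = 0.0117). With total-count scaling its change at 1:1 was -1.43 where the median mouse entry was at -5.71, so that it lay above that median in either scaling. A near-identical copy, mmu-mir-7a-2-5p, had almost the same values, so the 2 are 1 observation.

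Of the mouse namesakes of conserved entries, 35 were tested for the change with periodate. edgeR called 4 higher at 1:1, 6 at 1:10, 10 at 1:100, 3 at 1:1000, 2 at 1:10000 and 2 at 1:100000, beside 1.74%, 3.05%, 5.23%, 4.79%, 5.01% and 2.4% of all mouse entries. It called 8 of the 35 lower at 1:10000, beside 15.3%, and 0 lower at the other ratios. Averaged over the ratios 6 were called higher and 5 lower, beside 3.49% and 7.41%, and 2 had a change that grew with the fly share, beside 1.31%. Slopes above 0 were called for 4 of 15 namesakes over oxidised libraries, beside 3.08%, and for 9 of 50 over untreated libraries, beside 4.31%, with 1 of 50 below 0, beside 0.942%.

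The namesakes called higher at 1:1 were mir-7a and mir-125b, each as a pair of near-identical copies, at 1:10 also let-7a, and for the oxidised slope mir-7a and mir-125b again, all of them 5p arms. mmu-mir-125b-1-5p had 7.5, 0 and 11.5 counts in oxidised 1:1 libraries and rose by log2 2.91 ± 0.93 (SE, edgeR adjusted p = 0.0182). Its level there averaged 986 ± 1159 oxidised and 168 ± 71.9 untreated (SD, n = 3 each). Oxidised replicate 2, with 0 counts, lay below every untreated library of that ratio, so the treatments overlapped. Its change under other scalings is not given here. mmu-let-7a-1-5p did not follow the fly share. Its oxidised level averaged 1014 ± 608 at 1:1, 2807 ± 2306 at 1:10, 5428 ± 5294 at 1:100, 17925 ± 30340 at 1:1000, 10177 ± 16123 at 1:10000 and 3427 ± 4588 at 1:100000 (SD, n = 3 each). At 1:1000 and 1:10000 nearly all of it was in replicate 2, with 701 and 1984.5 counts. These 3 mouse miRNAs are the namesakes of dme-mir-7-5p, dme-mir-125-5p and dme-let-7-5p, which had 0 oxidised counts, as did dme-mir-219-5p, dme-mir-125-3p and dme-mir-375-5p. Not all namesakes rose at 1:1. There mmu-mir-219a-1-5p had 0 oxidised counts, against an untreated level of 55.7 ± 9.82. mmu-let-7e-5p averaged 65.6 ± 114 oxidised, on 1 count, and 84.6 ± 26.4 untreated (SD, n = 3 each). In those oxidised libraries 1 count is a level of 92.9, 1242 and 197, so these values decide little. Whether fly reads were counted under the mouse names was not tested.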

How the data were processed

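Small RNA libraries were size-selected and depleted of 2S rRNA, per the labels' protocols. The files hold estimated counts per miRNA entry deposited by the authors, of which 80.6 to 98.1% per library were whole; counts were rounded for the tests. The builds dm3 and mm10, with cutadapt 1.2.1 and HTSeq 0.6.1p1 as tools, are listed in the submitters' processing notes. The rule for reads that match several entries is not given in the sources used here. Replicate 1 files (12) list 1781 entries and the other 24 list 2038, and the 257 missing entries were set to 0. The labels give replicate 1 another instrument and RNA input than replicates 2 and 3. The design text speaks of 2 replicates.

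Levels and tests scaled each library to its mouse miRNA total times a TMM factor over the 100 most abundant mouse entries. This was chosen on simulated data, where TMM over all mouse entries was biased. The simulation holds the most abundant mouse entries unchanged. It therefore favours this scaling and cannot decide which scaling is right for the real libraries. Quasi-likelihood fits used edgeR 4.0.16 with limma 3.58.1 in R 4.3.3 over the whole table, after edgeR's filter on the libraries entering the fit (minimum count 10, minimum total 15). P-values were adjusted by Benjamini-Hochberg over all tested entries of both species and called below 0.05. The standard error is that implied by an estimate and its p. DESeq2 1.42.0 was an alternative. Other steps used Python 3.11.15, pandas 2.3.3 and scipy 1.17.1. Intervals and floors (3 counts) cover counting error only. Whether PCR copies were removed is not given, and such reads are not independent molecules.

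Oxidised and untreated libraries of the same number come from 1 split mixture, per the labels. Deviations from group means over 300 entries correlated within these 18 pairs with a median r of 0.241 (lowest 0.015), above 0.1 in 14.

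Every entry of the rule is accounted for by its counts. Those that passed the filter are named with values, and mouse entries of the same number and arm are named beside them. The gene table of Release 6 gave hairpin neighbours, matching 16 of 16 hairpins. The entries, lists and tests were chosen with earlier results of these data known.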

Additional observations from a re-analysis of the deposited data

Results flagged for a closer look

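The change of mmu-mir-7a-1-5p with periodate differed along the dilution in edgeR's test of the interaction between treatment and mixing ratio. Its log10 change grew by 0.228 ± 0.0408 for each 10-fold step towards more fly RNA (SE, edgeR adjusted p = 0.000204), and 2 of 35 mouse namesakes tested were called in that test, this entry and its near-identical copy. No other value met a rule for a closer look.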

How the results depend on the processing

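Each result was recomputed with other scalings, filters and tools and without single replicates. Values of single entries kept direction and side of the threshold in 760 of the recomputations, passed the threshold newly in 19, lost it in 38 and changed sign in 20. Added after seeing the data were factors from all mouse entries, a filter made on all libraries, adjustment over fly entries alone and omission of untreated 1:100000 replicate 1. Depth after periodate limits all results below 1:100, and the causes of the changes below were not tested.

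Without a low-count filter, members called higher were 16 at 1:1 (6 with it), 17 at 1:10 (6), 1 at 1:100000 (0), 16 for the oxidised slope (2) and 16 for the untreated slope (6). In that setting 1 was called higher and 1 lower along the dilution (0 and 0), and 8 had slopes below 0 against fly counts (3). Against fly counts it gave 0 higher and 1 lower at 1:1 (2 and 0), 2 lower at 1:10 (0), and 0 higher and 4 lower at 1:100 (1 and 0). The filter on all libraries gave 6 for the oxidised slope and 1 below 0 against fly counts. Fits on single ratios, which tested fewer entries, called 2 of 2 at 1:100 (6 of 6), 1 of 1 at 1:1000 (5 of 5) and 0 of 1 at 1:10000 (3 of 3). DESeq2 called 3 at 1:100000. Total counts called 5 lower along the dilution, and total counts, factors from all mouse entries and the fit without untreated 1:100000 replicate 1 each called 1 untreated slope below 0, that of dme-mir-124-3p. Adjustment over fly entries alone left 0 called higher against fly counts at 1:1 and at 1:100. Without bantam among the other fly counts 0 were higher and 1 lower at 1:1, and 1 lower at 1:100.

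With replicate sets as a block, 1 member was called lower at 1:1 and 1 higher at 1:10 against fly counts (0 and 0), and the pairing changed no other count of calls by more than 1.5 times.

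Leaving out 1 replicate at a time gave 1 to 1 called on average (2), with 1, 5 and 2 entries tested, 2 to 5 at 1:1000 (5), 1 to 3 at 1:10000 (3), 0 to 1 lower along the dilution (0) and 0 to 1 untreated slopes below 0 (0). Against fly counts it gave 0 to 2 higher and 0 to 1 lower at 1:1, 0 to 1 higher and 0 to 1 lower at 1:10, and 0 to 1 higher and 0 to 2 lower at 1:100.

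Signs turned with total counts for dme-mir-92b-3p at 1:1 (-0.074), for dme-mir-193-5p and dme-mir-31a-5p along the dilution (-0.249 and -0.372), and for mmu-mir-7a-1-5p at 1:1 (-1.43), 1:10 (-1.84), 1:100 (-1.33), on average (-0.85), along the dilution (-0.137) and in its oxidised slope (-0.150). With DESeq2 size factors, which put the median mouse entry between -1.88 and -2.72, mmu-mir-7a-1-5p was at -0.73 on average, -1.55 at 1:100, -2.60 at 1:1000, -1.60 at 1:10000 and -2.08 at 1:100000, and with factors from all mouse entries it was at -0.000135 at 1:100. DESeq2 gave dme-mir-190-3p 7.76 and dme-mir-193-5p 7.80 at 1:100000, on 0 oxidised counts and 1 untreated count each. Without replicate 3, dme-mir-7-3p and dme-mir-92b-3p were at -1.41 and -1.41 at 1:1000, with up to 10.31 and 9.16 when another replicate was left out. The slope of dme-mir-190-5p against fly counts was 0.0551 without replicate 1 and -0.164 without replicate 3.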
